A study of Caenorhabditis elegans with 8 samples.

Results

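The transcripts described here are those of the dehydrogenase genes that the array annotation calls dhs (short-chain dehydrogenases), alh (aldehyde dehydrogenases) or sodh (alcohol or sorbitol dehydrogenases), each followed by a number. The rule uses the name alone and no measured value, although it was written with earlier results of these data known. 1 gene of that name form was left out. The rule found 42 genes among the 15082 genes with a symbol and values, of which 29 were dhs genes, 12 were alh genes (alh-1 to alh-12) and 1 was sodh-2. Most of them, 27, were measured by 1 probe, and alh-8 by 19. The genes known as sodh-1 and alh-13 were not analysed here.

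Wild-type Caenorhabditis elegans of the N2 Bristol strain were compared in 2 states. Dauers are the long-lived larvae that form under crowding and lack of food and do not feed. They were grown in liquid culture to day 12, purified with detergent and density steps, and held overnight in saline (n = 4). Dauer exit samples were purified dauers that had been fed OP50 bacteria on plates at 20 °C for 12 h (n = 4). Worms of mixed stages came from plates harvested on day 5. The sources give different temperatures for the dauer culture, all above 20 °C. Culture form, age and temperature cannot be told apart from stage. Each sample was hybridised on a 2-colour Agilent array against pooled RNA of worms of mixed stages (mix-stage), so every value is a log2 ratio of a sample's own RNA over mix-stage RNA. The own RNA was in Cy5 on dauer arrays 1 and 2 and on dauer exit arrays 1 and 4, and in Cy3 on the others. Samples of a stage came from parallel cultures. Equal amounts of total RNA were labelled, so a ratio is not an amount per worm, and in whole worms fewer cells of a type cannot be told apart from less RNA per cell. The mix-stage pool contributed as 1 control sample and its own spread is not part of any test.

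Short-chain dehydrogenases, aldehyde dehydrogenases and alcohol dehydrogenases move hydride between a substrate and a nicotinamide cofactor. The short-chain enzymes act on sterols, sugars, retinoid-like molecules and fatty acyl intermediates, and 1 of the worm's, dhs-16, takes part in making the dafachronic acid hormones that commit larvae to reproductive growth instead of dauer. Aldehyde dehydrogenases oxidise reactive aldehydes to acids and sit in the breakdown of valine, lysine and proline, in one-carbon metabolism and in the clearance of fatty aldehydes. Dauers live on stored fat, with a metabolism turned away from the oxidative growth of feeding larvae.

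Across all genes, arrays of a stage correlated at 0.467 to 0.786 in dauers and at 0.464 to 0.748 in dauer exit. Dauer array 3 correlated at 0.467 with dauer array 2 and 0.534 with dauer array 1, both with own RNA in Cy5, and at 0.732 with dauer array 4, like itself in Cy3. The other pairs of dauer arrays correlated at 0.706 to 0.786. Dauer exit array 1 correlated at 0.464 with dauer exit array 3. These are correlations across genes, which are not independent. The 7 measured of 10 dauer markers had medians of 0.48 to 3.10 on the dauer arrays and of -1.13 to -0.19 on the dauer exit arrays. Of the 7, limma called 3 higher in dauers than in dauer exit (2.13% of all genes) and 4 higher than mix-stage (4.95%). Called in neither were sod-3, ctl-1 and icl-1, at -0.07, -1.05 and 0.15 over mix-stage in dauers. Whole-worm tissue markers moved too. The medians of 8 intestinal genes lay between -2.92 and -0.79 in dauers, highest on dauer array 3, and between -1.92 and -0.87 in dauer exit. Those of 8 muscle genes lay between -2.83 and -1.53 in dauers and between -2.05 and -0.98 in dauer exit. Germline genes (10) lay between -1.46 and -0.89, then between -0.94 and -0.29. Hypodermal genes (7) lay between -1.84 and -0.51 in dauers and between 0.03 and 0.25 in dauer exit. Neuronal genes (8) lay between -0.85 and 0.49, then between -0.47 and -0.4, and sperm genes (5) between -0.75 and 0.15, then between -0.21 and -0.02. The part of these shifts in the results below was not tested.

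Relative to mix-stage worms the dehydrogenase transcripts lay mostly below 0. In dauers 3 members were called higher and 15 lower, where a call is an adjusted p of 0.05 or less from limma over all genes. These 18 are 42.9% of the members. Over all genes 18.6% were called, 4.95% higher and 13.7% lower. The median log2 ratio of the members was -0.81 against -0.05 for all genes, and 30 of 42 lay below 0. The paper reports a smaller share of mRNA in dauer total RNA than in mix-stage RNA, and expects most genes to be lower in dauers. Its part in the member values was not tested, and genes near background were not set apart among all genes. At 12 h of dauer exit 11 members were called lower (26.2%) and 0 higher, with 0 higher also at an unadjusted p under 0.05. The share of all genes called there was 9.53%, with 0.451% higher and 9.08% lower. The median of the members was -0.48 and that of all genes -0.08. Both comparisons use the same mix-stage RNA and are not independent.

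Between the stages themselves the members did not lean to one side. Relative to dauer exit, 3 members were called higher in dauers and 2 lower, which is 11.9% of 42. The share over all genes was 4.01%, 2.13% higher and 1.88% lower. As many members lay above 0 as below (21 each), and their median difference was -0.01 beside 0.03 for all genes. At an unadjusted p under 0.05, 5 were higher and 5 lower. The dauer and dauer exit arrays did not overlap for 6 members (14.3%), against 9.57% of all genes.

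**Figure D1:**
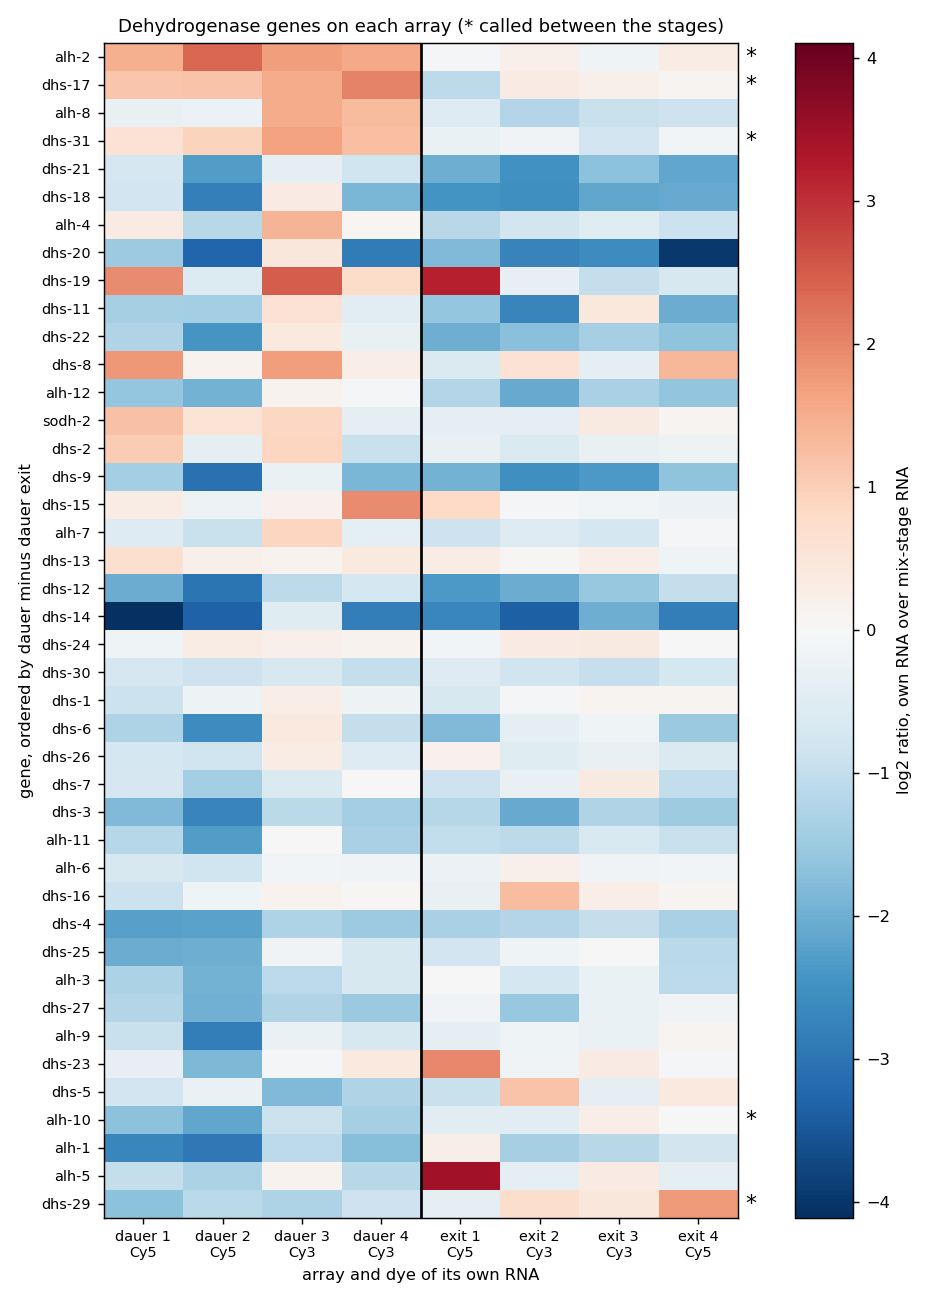
Heat map of the 42 dehydrogenase genes (rows, ordered by dauer minus dauer exit) on the 8 arrays (columns, with the dye of the array's own RNA). Colour is the log2 ratio of own over mix-stage RNA, red above 0 and blue below, and an asterisk marks the 5 genes called between the stages; dauer array 3, with a member median of 0.15, is paler or redder than the other dauer arrays.

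The heat map by array shows how unevenly the dauer arrays read these genes. The member medians on dauer arrays 1 to 4 were -0.83, -1.35, 0.15 and -0.60. Dauer array 2 held the lowest of the 4 values for 26 of the 42 genes and dauer array 3 the highest for 27. By dye, the dauer arrays with own RNA in Cy3 (3 and 4) read above those in Cy5 for 36 members, with a median gap of 0.86 against 0.23 over all genes. In dauer exit that held for 20 members and the median gap was -0.05, and the array medians were -0.57, -0.49, -0.30 and -0.62. Without dauer array 3 the 18 members called in dauers were all kept and 6 were added, while 20.0% of all genes were called. Those added were alh-12, dhs-6, dhs-18, dhs-20, dhs-22 and dhs-26. Leaving out dauer array 1, 2 or 4 instead gave 13, 14 and 15 members called in dauers. Over all genes 2099, 2313 and 2053 were then called, against 2809 with all arrays. Without dauer exit array 1, 9 of the 11 dauer exit calls were kept, dhs-12 and dhs-22 were lost and 0 were added. The share of all genes called there fell to 6.66%. Leaving out dauer exit array 2, 3 or 4 gave 5, 9 and 8 members called in dauer exit. Over all genes 696, 1044 and 857 were then called, against 1438 with all arrays.

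Grouped by their calls against mix-stage, the members fell into 5 sets. Higher in dauers and not called in dauer exit were 3 members (7.14%, against 4.73% of all genes). Lower in dauers and not called in dauer exit were 8 (19.0%, against 7.49%). Lower in both were 7 (16.7%, against 6.11%), and lower in dauer exit only were 4 (9.52%, against 2.83%). None lay on opposite sides, and 20 were called in neither comparison. The sets rest on thresholds, and a gene called in 1 stage is not thereby shown to differ between the stages. That difference was tested for every gene, and the 5 members that passed come from the first and the second set.

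**Figure D2:**
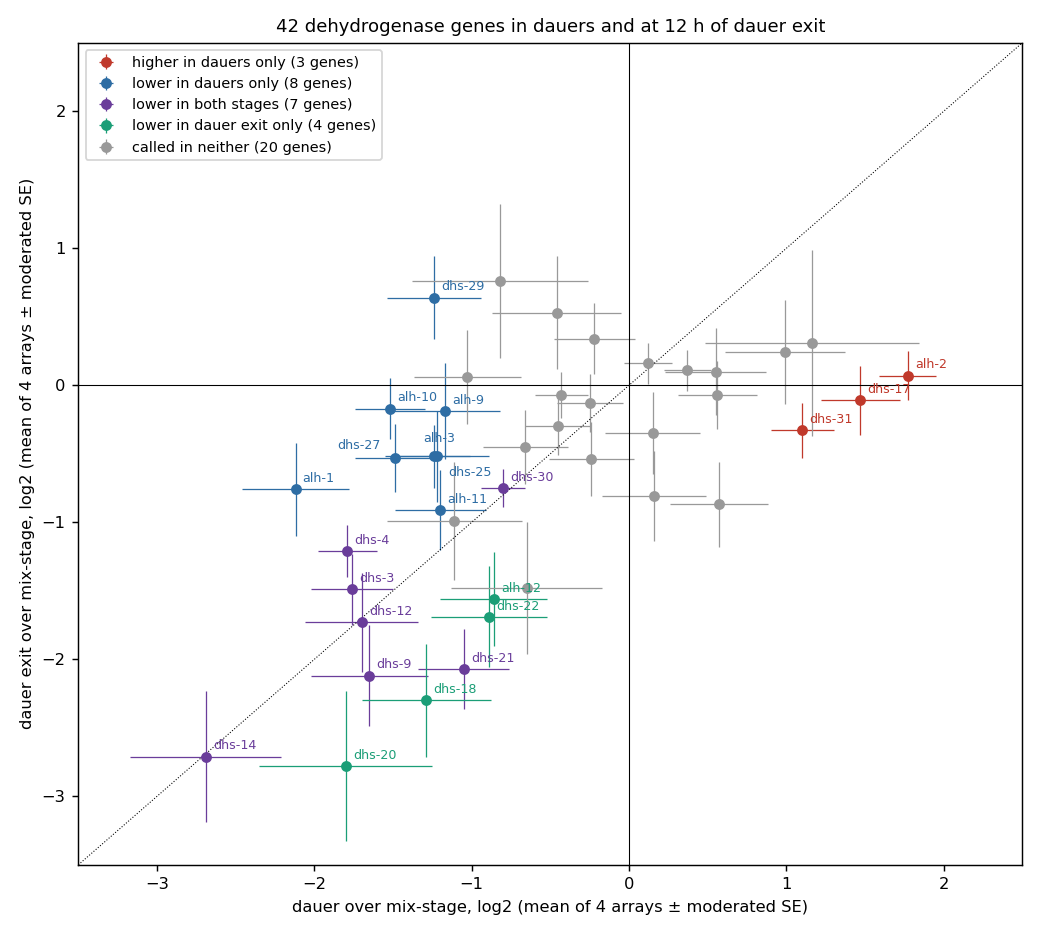
Log2 ratio over mix-stage in dauers (horizontal axis) and at 12 h of dauer exit (vertical axis) for the 42 genes, as means of 4 arrays with moderated standard errors, coloured by the calls against mix-stage. The dotted line marks equal values; alh-2, dhs-17 and dhs-31 lie far to its right near a dauer exit value of 0, and dhs-14 lies on it at -2.69 and -2.71.

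The aldehyde dehydrogenase gene alh-2 had the highest dauer ratio of the members. Its log2 ratios on dauer arrays 1 to 4 were 1.46, 2.36, 1.73 and 1.55, and those on the dauer exit arrays were -0.04, 0.20, -0.19 and 0.30. The stages were apart by more than 1 log2 unit at their closest arrays. In dauers alh-2 averaged 1.77 ± 0.41 (SD, n = 4), which is 3.42-fold over mix-stage (adjusted p = 0.000173). It was 3.27-fold higher than in dauer exit (log2 difference 1.71, SE 0.25, adjusted p = 0.0072). That call held with any 1 array left out, at an adjusted p of 0.00886 to 0.0292. Within each dye the difference was of like size, 1.78 in Cy5 and 1.63 in Cy3, with adjusted p of 0.185 and 0.062 on 4 arrays each. Of all genes, limma called 0 between the stages within Cy5 arrays (1933 at an unadjusted p under 0.05) and 276 within Cy3 arrays.

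The short-chain dehydrogenase gene dhs-17 followed the same pattern on its 1 probe. Dauer arrays read 1.13, 1.18, 1.54 and 2.03, and dauer exit arrays -1.07, 0.33, 0.21 and 0.10. Every dauer array was above every dauer exit array, and dauer exit array 1 was below its 3 companions. The dauer mean of 1.47 ± 0.42 (SD) was 2.77-fold over mix-stage (adjusted p = 0.0028). Between the stages the fold was 2.99 (log2 difference 1.58, SE 0.35, adjusted p = 0.0406). This call was lost when any 1 array other than dauer array 2 was left out (1.26 to 1.73, adjusted p = 0.0636 to 0.117).

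A further short-chain gene, dhs-31, was raised to a lesser degree. Its 2 probes averaged 0.59, 0.92, 1.66 and 1.23 on the dauer arrays and -0.27, -0.15, -0.79 and -0.10 on the dauer exit arrays. All dauer values were above 0 and all dauer exit values below it. The dauer mean was 1.1 ± 0.46 (SD), 2.14-fold over mix-stage (adjusted p = 0.0039), and the difference from dauer exit was 1.43 (SE 0.28, 2.69-fold, adjusted p = 0.0245). Leaving out dauer array 4 or dauer exit array 1, 2 or 3 ended this call (1.27 to 1.49, adjusted p = 0.0601 to 0.0809). The difference was 0.94 within Cy5 arrays and 1.92 within Cy3 arrays.

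**Figure D3:**
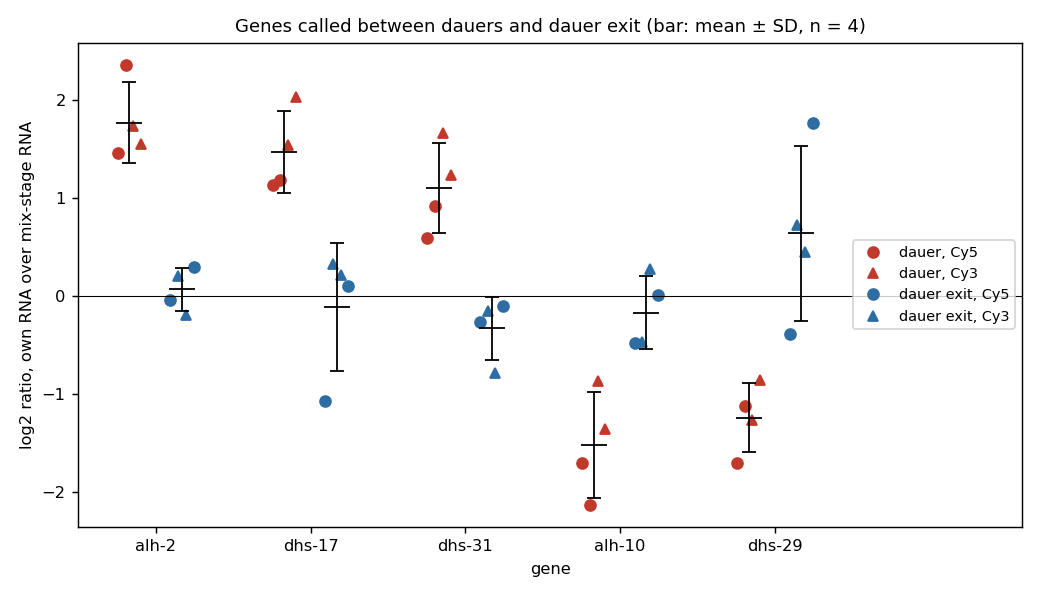
Log2 ratio over mix-stage of the 5 genes called between the stages, for each dauer array (red) and dauer exit array (blue), with circles for own RNA in Cy5 and triangles for Cy3. Bars are the mean and SD of 4 arrays; no dauer array overlaps a dauer exit array for any of the 5 genes, and dhs-29 has the widest dauer exit spread (SD 0.89).

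In the opposite direction, dhs-29 had the largest difference between the stages of any member. It read -1.70, -1.12, -1.27 and -0.86 on the dauer arrays and -0.39, 0.72, 0.45 and 1.76 on the dauer exit arrays. The 4 dauer arrays were close together and the dauer exit arrays were spread over more than 2 log2 units, 3 of them above 0. Dauers were 2.36-fold below mix-stage (log2 -1.24, SE 0.30, adjusted p = 0.0168) and 3.67-fold below dauer exit (-1.88, SE 0.42, adjusted p = 0.0406). The dauer exit mean of 0.64 was not called against mix-stage (adjusted p = 0.267). Only without dauer exit array 1 did the call between the stages hold when 1 array was left out. Without any other single array it was between -2.0 and -1.5 (adjusted p = 0.0596 to 0.105). Without dauer array 1 the call against mix-stage was lost as well (-1.08, adjusted p = 0.0812).

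The aldehyde dehydrogenase gene alh-10 was the other member lower in dauers than in dauer exit. Its dauer arrays read -1.70, -2.13, -0.87 and -1.36, and its dauer exit arrays -0.48, -0.47, 0.28 and 0.01. The nearest arrays, dauer 3 and dauer exit 1, read -0.87 and -0.48, and the stages did not overlap. The difference was -1.35 (SE 0.31, 2.55-fold, adjusted p = 0.0460), and dauers were 2.86-fold below mix-stage (adjusted p = 0.00122). The call between the stages held without dauer array 3 (-1.57, adjusted p = 0.022) and was lost without any other single array (-1.45 to -1.14, adjusted p = 0.0722 to 0.133).

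The other 6 members called lower in dauers only include enzymes of amino acid and one-carbon metabolism. The mitochondrial aldehyde dehydrogenase gene alh-1, of the type that clears acetaldehyde in mammals, read -2.69, -2.94, -1.08 and -1.76 in dauers. In dauer exit it read 0.23, -1.36, -1.15 and -0.76, so that dauer array 3 lay above 2 dauer exit arrays. Dauers were 4.34-fold below mix-stage (log2 -2.12, SE 0.34, adjusted p = 0.002), a call kept with any 1 array left out. The difference from dauer exit, -1.36, missed the threshold (SE 0.48, adjusted p = 0.185), and was -2.56 within Cy5 arrays and -0.17 within Cy3 arrays.

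The gene for formyltetrahydrofolate dehydrogenase, alh-3, which returns one-carbon units from folate as carbon dioxide, averaged -1.24 ± 0.53 (SD) in dauers over 4 probes (adjusted p = 0.00499). In dauer exit it averaged -0.52 ± 0.46 and was not called (adjusted p = 0.246). The counterpart of human antiquitin in lysine breakdown, alh-9, averaged -1.17 ± 1.14. Its dauer values were -0.92, -2.83, -0.27 and -0.66, all below 0 with dauer array 2 far below the rest. Leaving out any 1 array but dauer array 3 ended the call of alh-9 (-1.34 to -0.62, adjusted p = 0.0611 to 0.0995, from 0.0458 with all arrays).

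Among those without a role given here, dhs-27 was the steadiest, with dauer values of -1.21, -1.99, -1.23 and -1.52 (mean -1.49, adjusted p = 0.0027). The dauer mean of dhs-25 was -1.22, with dauer arrays 1 and 2 at -2.05 and -2.0 and dauer arrays 3 and 4 at -0.15 and -0.66. Its call did not survive leaving out dauer array 1 or 2 (-0.94 and -0.96, adjusted p = 0.143 and 0.13). The dauer mean of alh-11 was -1.2, and it was below 0 in dauer exit as well (-0.91, adjusted p = 0.0954). Leaving out dauer array 1, 2 or 4 ended its dauer call (-1.21 to -0.84, adjusted p = 0.0613 to 0.0734).

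Of the 7 members called lower in both stages, dhs-14 was lowest in each. On the dauer arrays it read -4.11, -3.32, -0.50 and -2.83, and on the dauer exit arrays -2.68, -3.34, -2.0 and -2.84. Dauer array 3 alone was above -1, and the ranges of the stages overlapped. The transcript was 6.46-fold below mix-stage in dauers (adjusted p = 0.0038) and 6.56-fold below it in dauer exit (adjusted p = 0.0071), and the difference between the stages was 0.02 (SE 0.68). Without dauer exit array 2 the dauer exit call missed the threshold narrowly (-2.50, adjusted p = 0.0501).

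The lipid droplet protein gene dhs-3, whose product coats the fat stores of the intestine, was also low in both stages. Its values were -1.82, -2.70, -1.12 and -1.4 in dauers and -1.17, -2.08, -1.24 and -1.45 in dauer exit. No array was above -1, and both calls were kept with any 1 array left out. The means were -1.76 (SE 0.26, adjusted p = 0.0013) and -1.49 (adjusted p = 0.0063), or 3.39-fold and 2.80-fold below mix-stage. Intestinal markers were low on the same arrays, as given above, and their part was not tested.

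Among the single-probe genes of this set dhs-4 had the smallest spread, with an SD of 0.49 in dauers and 0.17 in dauer exit. It lay 3.46-fold below mix-stage in dauers (log2 -1.79, adjusted p = 0.000217) and 2.32-fold below in dauer exit (log2 -1.21, adjusted p = 0.0037), on all 8 arrays between -2.22 and -0.97. The gene for L-xylulose reductase, dhs-21, a sugar reductase, was lower in dauer exit (-2.07 ± 0.32) than in dauers (-1.05 ± 0.86) by its means. Its difference between the stages, 1.03, was not called (SE 0.40, adjusted p = 0.249), and without dauer array 1, 2 or 4 its dauer call was lost (-1.17 to -0.63, adjusted p = 0.0582 to 0.0734).

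For dhs-9 the means were -1.65 in dauers and -2.12 in dauer exit, and for dhs-12 they were -1.70 and -1.73. Dauer array 3 read -0.28 for dhs-9 and the other dauer arrays -1.39 to -3.08. Without dauer array 4 the dauer call of dhs-9 was lost (-1.58, adjusted p = 0.055). The dauer exit call of dhs-12 was lost without dauer exit array 1, 2 or 3 (-1.79 to -1.53, adjusted p = 0.0509 to 0.0863).

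The seventh of the set, dhs-30, had probes that disagreed. Its gene value lay between -0.98 and -0.53 on the 8 arrays, with means of -0.80 ± 0.15 in dauers and -0.75 ± 0.17 in dauer exit, both called. Its 8 probes split into 2 groups that did not overlap on any array. The 5 probes annotated to one transcript record had medians between -0.3 and 0.35 on the 8 arrays, and none of them was called. The 2 probes of another record had medians between -2.48 and -1.36, and the 1 probe with no record lay between -2.64 and -1.29.

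All 3 of these lower probes of dhs-30 were called in both stages when every probe was tested over all features with values, with dauer log2 ratios of -2.09, -1.94 and -2.05. With the median of the probes in place of the mean, dhs-30 was not called (dauer -0.17, adjusted p = 0.599; dauer exit -0.34, adjusted p = 0.297). The stage means of the 5 upper probes lay between -0.2 and 0.12 and those of the 3 lower probes between -2.09 and -1.66, and the gene-level means fall between the 2 groups. Its dauer exit call was also lost without dauer exit array 2 (-0.73, adjusted p = 0.0506).

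**Figure D4:**
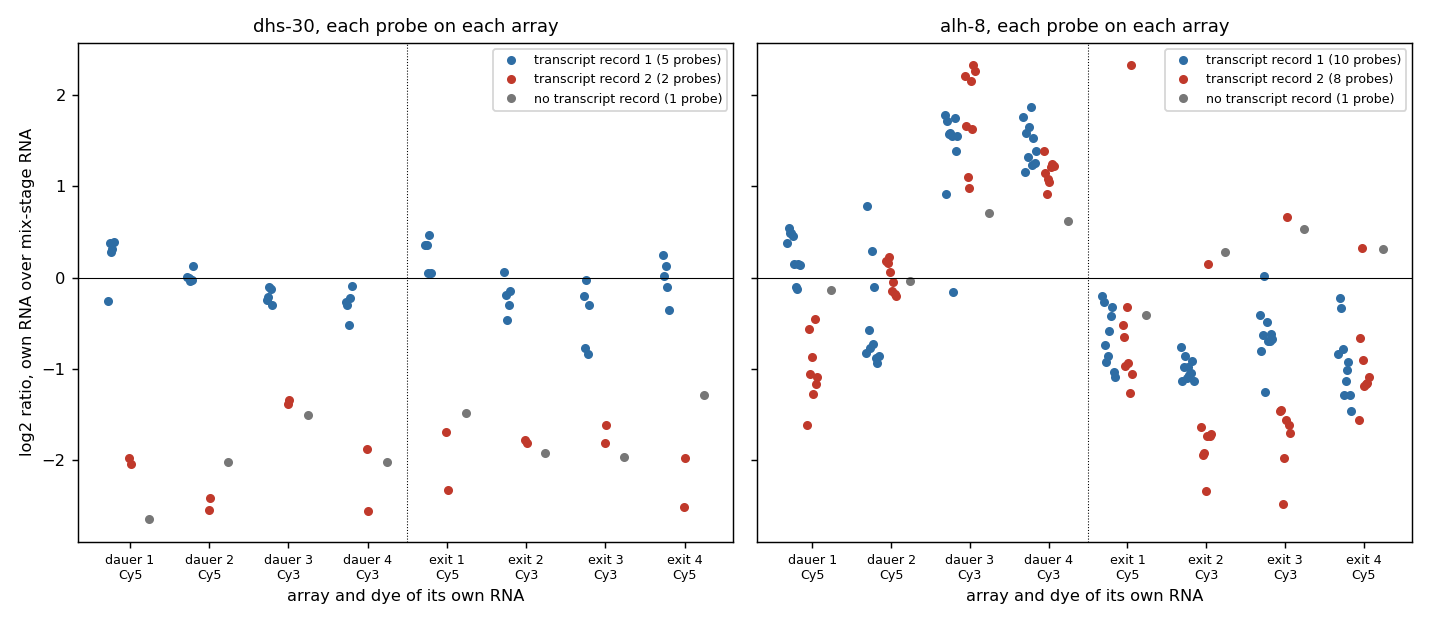
Log2 ratio over mix-stage of every probe of dhs-30 (left, 8 probes) and alh-8 (right, 19 probes) on each array, coloured by the transcript record to which the probe is annotated. The dhs-30 probes form 2 bands, near 0 and near -2, on all arrays; the alh-8 probes lie above 0 on dauer arrays 3 and 4 with 1 exception, and mostly below 0 on the dauer exit arrays.

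Called lower in dauer exit only were dhs-18, dhs-20, dhs-22 and alh-12. For each of them the SD over arrays was smaller in dauer exit (0.22 to 0.88) than in dauers (1.05 to 1.68). For dhs-18 the dauer exit arrays read -2.45, -2.53, -2.15 and -2.08, a mean of -2.30 ± 0.22 (SD) and 4.93-fold below mix-stage (adjusted p = 0.0072). The dauer arrays read -0.79, -2.82, 0.33 and -1.87, with an SD of 1.36, and were not called (adjusted p = 0.0585).

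The lowest dauer exit value of any member was that of dhs-20, whose arrays read -1.83, -2.76, -2.60 and -3.95 (mean -2.78, 6.89-fold, adjusted p = 0.0122). In dauers it read -1.49, -3.27, 0.45 and -2.88, where dauer array 3 alone was above 0 (adjusted p = 0.0502). Without dauer array 3 the dauer value was -2.55 and was called (adjusted p = 0.00304). No other single omission gave a call in dauers, where the value rose to as much as -1.31 and the adjusted p to 0.202. Its dauer exit call was lost without dauer exit array 2 or 4 (-2.79 and -2.40, adjusted p = 0.0618 and 0.0665). The transcript record of its 1 probe belongs in the current gene table (assembly WBcel235) to idpp-16, the next gene along the chromosome, so what this probe measured is uncertain.

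The dauer exit means of dhs-22 and alh-12 were -1.69 ± 0.25 and -1.56 ± 0.38 (adjusted p = 0.0209 and 0.0192). In dauers both were low on arrays 1 and 2 and near 0 on arrays 3 and 4. The values of alh-12 were -1.58, -1.93, 0.13 and -0.05, and those of dhs-22 -1.23, -2.42, 0.41 and -0.32. Leaving out any 1 dauer exit array ended the call of dhs-22 (-1.79 to -1.58, adjusted p = 0.0566 to 0.0934), and leaving out dauer exit array 2, 3 or 4 that of alh-12 (-1.64 to -1.39, adjusted p = 0.0556 to 0.109). All 4 members of the set were called lower in dauers too once dauer array 3 was left out. That array held the highest dauer value of each of the 4, so leaving it out could only lower their dauer means.

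Of the 20 members called in neither comparison with mix-stage, alh-8 had the largest difference in favour of dauers. It encodes methylmalonate-semialdehyde dehydrogenase, which forms propionyl-CoA from valine and related precursors. Dauer arrays 1 and 2 read -0.30 and -0.24, and dauer arrays 3 and 4 read 1.51 and 1.3. The dauer exit arrays read -0.54, -1.19, -0.91 and -0.86. The stages did not overlap, yet the dauer arrays were split by dye, with both Cy3 arrays high.

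The difference between the stages for alh-8 was 1.44 (SE 0.44, adjusted p = 0.12). It was 0.43 within Cy5 arrays and 2.45 within Cy3 arrays, where it was called (adjusted p = 0.038). All 19 of its probes were higher in dauers than in dauer exit, by 0.11 to 2.12, and 2 of them were called. The 10 probes of one transcript record and the 8 of another did not overlap on dauer array 1, with medians of 0.26 and -1.07. On dauer exit arrays 2 and 3 their ranges overlapped, with medians of -1.01 and -1.73 on the former and of -0.65 and -1.59 on the latter. On dauer array 2 their order turned, with medians of -0.75 and 0.01. Probes of 1 gene share each array's RNA and are not replicates.

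The other measured enzymes of propionate and valine breakdown all had lower mean dauer ratios than alh-8. The dauer ratio of alh-8 was 0.57 and not called (adjusted p = 0.284), with means of -0.27 in Cy5 and 1.4 in Cy3. Of 8 measured genes of a list of 10, 6 were called lower in dauers (13.7% of all genes were), and the list median was -1.9. Not called were mmcm-1 (-1.16, adjusted p = 0.0738) and acdh-1 (-0.15, adjusted p = 0.743). In dauer exit limma called 0 of the 8, beside 9.53% of all genes. There 1 lower and 0 higher had an unadjusted p under 0.05, and the list median was -0.29. The propionyl-CoA carboxylase genes pcca-1 and pccb-1, whose enzyme uses the propionyl-CoA that alh-8 makes, were at -2.55 and -1.88 in dauers. Both were also called lower in dauers than in dauer exit (-2.28, adjusted p = 0.00925, and -1.5, adjusted p = 0.0463). The enoyl-CoA hydratase gene ech-6 was at -2.01 (adjusted p = 0.00186), and acdh-3, an acyl-CoA dehydrogenase, at -2.11 (adjusted p = 0.00349).

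The fatty aldehyde dehydrogenase gene alh-4 read 0.34, -1.14, 1.39 and 0.07 in dauers and -1.13, -0.76, -0.49 and -0.87 in dauer exit. Dauer array 2 lay just below the dauer exit range and the other 3 dauer arrays above it. The difference of 0.98 was not called (SE 0.46, adjusted p = 0.363). The gene for the proline-breakdown enzyme pyrroline-carboxylate dehydrogenase, alh-6, had means of -0.43 ± 0.35 in dauers and -0.07 ± 0.20 in dauer exit. Of its 7 probes, 2 were called lower in dauers, at -1.04 and -1.54, while the highest stood at 0.31. The lower of the 2 was the only probe of its transcript record, with values from -2.47 to -0.45 on the dauer arrays.

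The dafachronic acid gene dhs-16 was not called in any comparison. Its dauer arrays read -0.87, -0.19, 0.15 and 0.05 and its dauer exit arrays -0.30, 1.27, 0.27 and 0.11. The ranges overlapped, and the difference was -0.55 (SE 0.37, adjusted p = 0.586). The alcohol dehydrogenase gene sodh-2 read 1.19, 0.57, 0.84 and -0.37 in dauers and -0.37, -0.37, 0.38 and 0.10 in dauer exit. Its dauer mean of 0.56 ± 0.67 missed the threshold (adjusted p = 0.177).

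For several uncalled members dauer exit array 1 read far above the other dauer exit arrays. For dhs-19 dauer exit array 1 read 3.21 and the other 3 arrays between -0.97 and -0.33, and its dauer values ran from -0.56 to 2.49. The dauer mean of 1.16 was the third highest of the members and was not called (adjusted p = 0.327). For alh-5 the same dauer exit array read 3.45 and the others -0.37, 0.34 and -0.37. Its dauer exit mean, 0.76 with all arrays, was -0.13 without that array, and its uncalled stage difference of -1.58 (adjusted p = 0.399) was -0.69. For dhs-23 dauer exit array 1 read 1.99 beside values of -0.15, 0.34 and -0.05, and the mean of 0.53 was not called (adjusted p = 0.579).

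The means of the remaining 12 uncalled members lay between -1.11 (dhs-6) and 0.99 (dhs-8) in dauers and between -1.48 (dhs-11) and 0.24 (dhs-8) in dauer exit. Of these dhs-5 lay at -1.03 in dauers and 0.06 in dauer exit (difference -1.09, SE 0.48, adjusted p = 0.32). The others were alh-7, dhs-1, dhs-2, dhs-7, dhs-13, dhs-15, dhs-24 and dhs-26, none with a stage mean beyond 0.7 on either side of 0. The gene dhs-24 lay at 0.12 ± 0.21 in dauers and 0.16 ± 0.23 in dauer exit. The standard error of the stage difference over all members ran from 0.19 to 0.97 with a median of 0.42.

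By family, the alh genes were called lower in dauers in 5 of 12 cases (41.7%) and in dauer exit in 1 of 12 (8.33%). For the dhs genes the counts were 10 of 29 in dauers and 10 of 29 in dauer exit (34.5% each). Over all genes 13.7% were called lower in dauers and 9.08% in dauer exit, so the alh count in dauer exit was near the share of all genes. Whether the families differ was not tested. By position, the members lie on all 6 chromosomes, with 16 on chromosome V. The closest pair, dhs-14 and dhs-15, has 1 gene between them in assembly WBcel235, and dhs-15 averaged 0.55 in dauers where dhs-14 averaged -2.69. The dauer-high dhs-17 and the uncalled dhs-16 have 7 genes between them.

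Other reductases with related substrates were mostly near mix-stage. Of 9 measured of 14, only let-767, a steroid and fatty acyl reductase gene, was called. It was lower in dauers at -2.27 (adjusted p = 0.0185), where 13.7% of all genes were called lower and the list median was 0.16. At -2.08 in dauers, qdpr-1 narrowly missed the threshold (adjusted p = 0.0502). In the list of peroxisomal beta-oxidation and ascaroside synthesis 3 genes of 12 were measured. Only art-1, related to enoyl-CoA reductases, was called lower in dauers (-2.55, adjusted p = 0.000274), and its place in this pathway was not tested. The dauer ratios of maoc-1 (-1.35, adjusted p = 0.117) and prx-5 (0.0) were not called. The perilipin gene mdt-28, the only measured gene of the lipid droplet list, was called lower in dauer exit (-1.93, adjusted p = 0.0211) and read -0.24, -1.43, 1.49 and -1.32 in dauers. In the proline and one-carbon list 3 of 8 were measured, and mel-32, the serine hydroxymethyltransferase gene that feeds the folate pool on which alh-3 acts, was called lower in dauers at -2.38 and lower than in dauer exit by -2.11 (adjusted p = 0.0221).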

How the data were processed

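The authors used limma (version not given in the sources used here) for normexp background correction of GenePix data and for lowess normalization within arrays, weighted towards spike-in controls. They deposited log2 ratios, Cy5 relative to Cy3. Columns with opposite own dye correlated at -0.699 to -0.0455 and with the same dye at 0.224 to 0.743. Ratios were turned to own over mix-stage RNA by the dyes in the labels. Raw column medians lay between -0.0865 and 0.135. No signal intensities were used, so a gene near background cannot be told from an unchanged one.

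Of 45220 features 44123 had values, 27263 with 1 gene symbol. Probes were averaged per symbol (15082 genes). A linear model of 8 arrays, 1 coefficient for each stage, was fitted with lmFit and eBayes in limma 3.58.1 under R 4.3.3, with Benjamini-Hochberg adjustment over all genes and calls at 0.05. Errors of differences are moderated standard errors. The procedure was tested on simulated data. The number of arrays limits precision.

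Named were all members called, the 3 largest changes each way per comparison and members with a well-known role. Members, lists and the rule were chosen with earlier results of these data known, so list counts carry no test. 1 gene of the name form is not reported here. Alternatives were the probe summary, gene names, between-array scaling, a dye term, a replicate block, a robust prior, single arrays left out, each dye alone, each stage alone and probes tested singly. Chosen after seeing the data was the joint omission of dauer array 3 and dauer exit array 1. No column was left unused.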

Additional observations from a re-analysis of the deposited data

Results flagged for a closer look

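Within a stage, 4 of 84 groups of 4 arrays (42 genes in 2 stages) had 1 array set apart from the other 3 by Dixon's gap-to-range criterion, which chance alone meets in about 1 of 20 groups. Dauer exit array 1 was such a value for 3 genes: dhs-15 at 0.82, dhs-17 at -1.07 and dhs-19 at 3.21. For dhs-27 dauer exit array 2 stood apart at -1.56.

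The 5 members whose ratio over mix-stage differed between dauers and dauer exit by the limma contrast were alh-2 (1.71), dhs-17 (1.58), dhs-31 (1.43), alh-10 (-1.35) and dhs-29 (-1.88). The call of alh-2 was kept with any single array left out. With both dauer array 3 and dauer exit array 1 left out, alh-2, alh-10 and dhs-29 were called (1.69, -1.67 and -2.21) and dhs-17 and dhs-31 were not (1.24 and 1.26).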

How the results depend on the processing

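Over 34 called results and their alternatives, 587 of 708 values kept their side of the threshold, 121 lost it and 0 changed direction. Members called between the stages numbered 3 higher and 2 lower. The 2 lower became 0 with arrays on a common scale, 1 with a dye term and 1 with a robust prior. With each probe tested over all features, dhs-31 had 1 of 2 probes called between the stages and alh-8 had 2 of 19. A member was counted there by the middle adjusted p of its probes, the larger of the middle 2 for an even number. By that rule the counts were 1 higher and 0 lower. Within Cy5 arrays they were 0 and 0, within Cy3 arrays 1 and 0, where 0 and 276 of all genes were called against 605 with all arrays, and without dauer array 3 and dauer exit array 1 together 1 higher. Leaving out 1 array gave 1 to 4 higher and 0 to 1 lower. In dauers over mix-stage (3 higher, 15 lower), 1 was higher and 15 lower within Cy5 arrays, and 4 were higher and 4 lower within Cy3 arrays. Leaving out 1 array gave 3 to 4 higher and 10 to 21 lower. In dauer exit (11 lower), 4 were lower within Cy5 arrays, 7 within Cy3 arrays, and 5 to 12 with 1 array left out, the 5 without dauer exit array 2, where calls over all genes fell from 1438 to 696. Within Cy5 and Cy3 arrays 619 and 673 of all genes were called there, and 2423 and 1796 in dauers (2809 with all arrays). Of these dauer calls over all genes, 235 within Cy5 arrays and 942 within Cy3 arrays were higher (747 with all arrays). Fits within 1 dye hold 4 arrays. The uncalled dauer exit value of alh-5 turned from 0.76 to -0.13 without dauer exit array 1 (range -0.13 to 1.14 with 1 array left out), to -0.13 without that array and dauer array 3, and to -0.02 within Cy3 arrays. The cause of these changes was not tested beyond the number of arrays.

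Deviations of same-numbered arrays correlated at 0.07, -0.05, 0.23 and -0.15, and 2 of 8 arrays correlated best with their own number. Same-numbered arrays had the same own dye for numbers 1 and 3 and opposite own dyes for numbers 2 and 4. The check therefore cannot separate pairing from dye, and whether the replicate numbers pair the samples was not settled. With the replicate number as a block the members called between the stages were 2 higher and 2 lower, dhs-31 being lost (1.43, adjusted p = 0.0727). Against mix-stage the block gave 3 higher and 18 lower in dauers, dhs-20 among the latter (-1.8, adjusted p = 0.0224), and 0 higher and 12 lower in dauer exit. The planned filter on dim probes, plain background subtraction and slide block could not be fitted without intensities or slides.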
